A study of Setaria viridis with 23 samples.

Results

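The genes described here are the basic leucine zipper (bZIP) transcription factor family of Setaria viridis, a small C4 grass, followed in inflorescence primordia across 6 stages of development. The members are all genes on the bZIP sheet of the supplementary table of transcription factor families except SvFea4 and SvDfl1, and SvLg2 (Sevir.5G394700) was kept. That sheet holds 57 gene IDs. This left 55 of the 35214 genes in the table, of which 51 were among the 21180 genes with enough counts to be tested. The libraries came from hand-dissected primordia of the accession A10.1, grown without any treatment, and taken at 6 ages in days after sowing (DAS): 10, 12 and 14 DAS early, then 15, 16 and 18 DAS. Each stage has 4 libraries except 12 DAS, which has 3 (replicates 1, 2 and 4). These stages run from the newly formed inflorescence meristem (10 DAS) through branching (12 and 14 DAS) to spikelet meristems (15 DAS), the separation of spikelets and bristles (16 DAS) and floral organs (18 DAS). Each replicate was a pool of primordia, so the spread between replicates is one between pools and not between plants. In such bulk tissue, fewer cells of a type and less RNA per cell cannot be told apart.

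bZIP proteins bind DNA as pairs: a basic region contacts the DNA and a leucine zipper holds 2 subunits together, either alike or from different genes, so which partners are present in a cell matters for what is bound. Plant bZIPs are sorted into lettered groups. In Arabidopsis, group D holds the TGA factors of defense and of anther development, group A the abscisic acid factors of seeds and drought together with FD, the partner of florigen, group G the G-box factors, group H the light regulator HY5, and groups C and S the factors that pair with each other under low energy supply. In inflorescences the best known grass member is liguleless 2 of maize, which acts at the boundary between blade and sheath of the leaf and is needed for tassel branches.

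The label of the family was checked against the annotation on the sheet. A basic leucine zipper domain is given for 35 of the 55 members, and for 10 members no domain is given while the Arabidopsis match or the group is that of a bZIP gene. The remaining 10 carry another kind of leucine zipper: 9 have the MIP1-type zipper, 6 with a DUF547 domain and 3 with a GTPase-activating domain, and 1 has an AATF domain. The annotation of these 10 shows no basic region, so they go against the label, and they are given as groups of their own. By Arabidopsis match, annotation or domain the members were placed in 12 groups: 8 TGA, 8 of group A, 3 of G, 1 of H, 3 of C, 11 of S, 4 of I, 2 of F, 5 not assigned to a group (U), and the 6, 3 and 1 just named. Every member carries a cluster number on the sheet, and such numbers went only to genes selected for change among these same libraries. The number of members that differ among all 6 stages is therefore a description and not independent evidence: 48 of 51 differed, beside 88.3% of all tested genes, and the exceptions were Sevir.9G434200, Sevir.9G561500 and Sevir.3G044300, with edgeR adjusted p of 0.0627, 0.0906 and 0.115.

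Levels are counts scaled to a common library size (CPM, with TMM scaling) and not divided by gene length, so that a level can be compared between stages but not between genes. Called means an adjusted p under 0.05 in the quasi-likelihood test of edgeR, with p-values adjusted over all tested genes by the Benjamini-Hochberg method, and fold changes are log2 values with their standard error (SE). Library totals ran from 7630728 to 24467483 counts, and replicates 2 and 1 of 15 DAS were the shallowest. The libraries of 10, 12 and 14 DAS were sequenced in a paired-end run and those of 15, 16 and 18 DAS in a single-end run, so run and stage cannot be told apart in any step from 14 to 15 DAS. Marker genes were summed beside the tissue label, but levels cannot be compared between genes, so these sums cannot decide it. The sum of 7 meristem and inflorescence markers was between 357 and 1189 CPM in every library, and that of 3 leaf markers between 7.26 and 36.6 CPM. The sum of 4 floral organ markers was 2.83 to 5.99 CPM from 10 to 14 DAS. It was 19.7 to 28.5 CPM at 15 and 16 DAS, after the change of run, and 150 to 239 CPM at 18 DAS. One feature bears on much of what follows: the 4 libraries of 15 DAS differed from each other in many members, and the main results that rest on them are given with and without replicates 3 and 4.

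By stage mean, 18 members peaked at 15 DAS, 16 at 18 DAS and 11 at 10 DAS, while 4, 2 and 4 peaked at 12, 14 and 16 DAS. A peak is a ranking across both sequencing runs. Whether a member is highest in the early or the late stages therefore cannot be told apart from the run. As shares of the 55 these are 32.7% for 15 DAS, 29.1% for 18 DAS and 20% for 10 DAS. The table holds 10413 genes whose highest stage mean was more than 2 times the lowest and whose 6 stage means summed to at least 1 CPM, and of these 26.8% had their peak at 15 DAS, 23.7% at 18 DAS and, more than at any other stage, 28.5% at 10 DAS. Some of the 55 members do not meet this criterion, so both sets are not fully alike. The members highest at 15 DAS included all 3 of group C, all 3 of group G and 4 of the 8 in group A. Those highest at 18 DAS included 6 of the 11 in group S and 5 of the 6 MIP1-type genes with DUF547. Another scaling, or leaving out any 1 library, moved the peak of at most 3 members. Leaving out replicates 3 and 4 of 15 DAS together, a setting chosen after seeing the data, moved that of 8: Sevir.5G394500, Sevir.2G452300 and Sevir.5G260200 were then highest at 16 DAS, Sevir.1G338300 at 18 DAS and Sevir.4G155800 at 10 DAS, while Sevir.9G073900, Sevir.9G561500 and Sevir.3G044300 became highest at 15 DAS. The number of members highest at 15 DAS was then 16, and it was 20 without replicates 1 and 2.

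**Figure D1:**
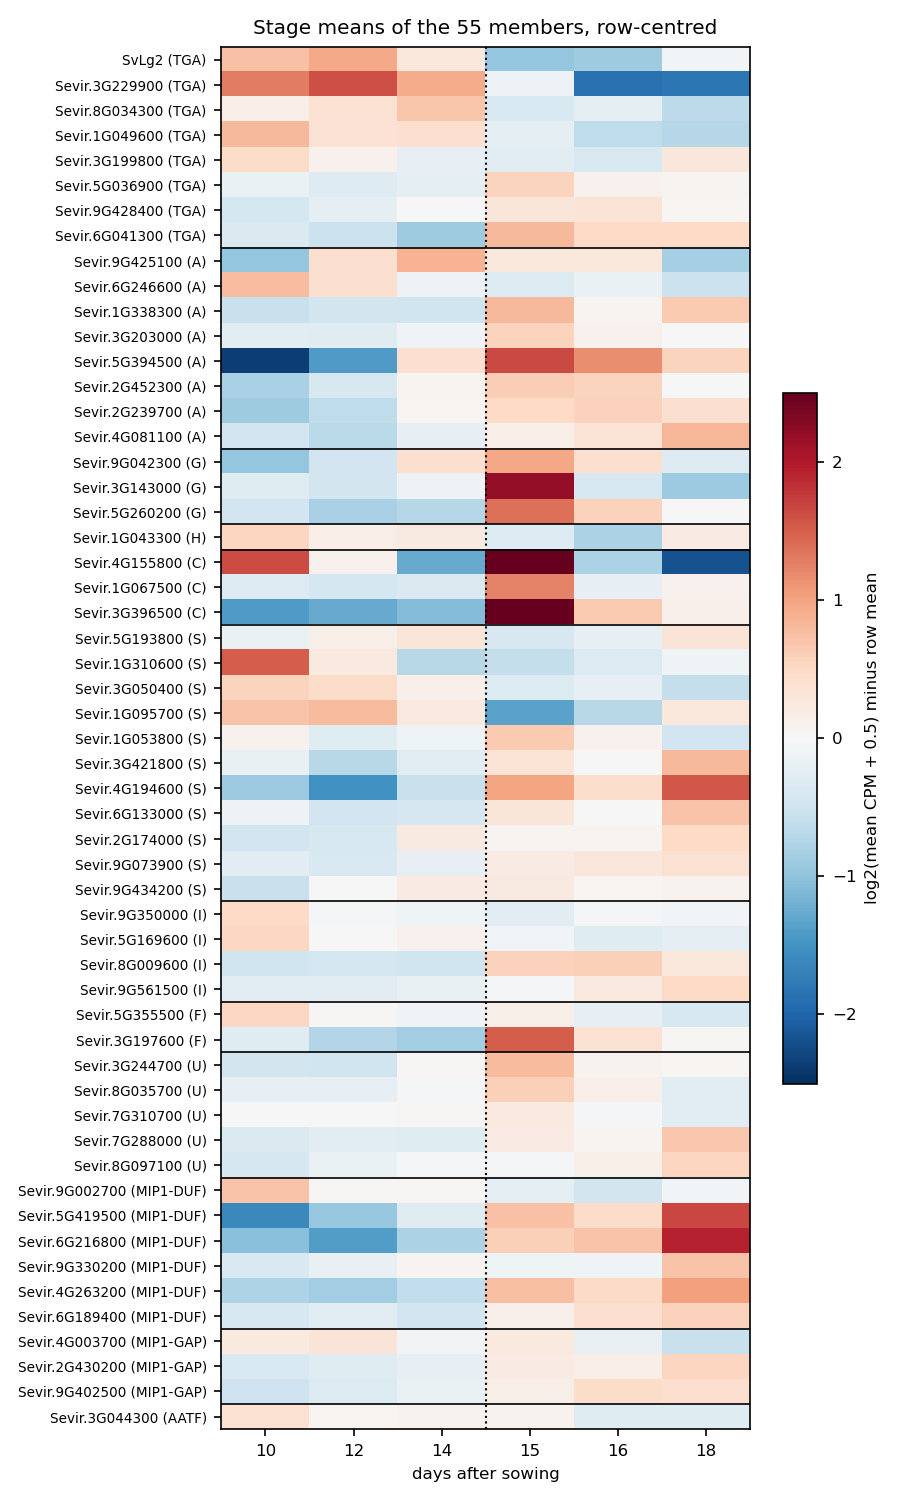
Stage means of the 55 members, as log2(mean CPM + 0.5) minus the mean of the row, at 10 to 18 DAS (columns), with members in rows ordered by group. Red is above and blue below the row's own mean, with the colour scale capped at both ends, and the dotted line marks the change of sequencing run. The 5 highest cells are those of Sevir.3G396500, Sevir.4G155800 and Sevir.3G143000 at 15 DAS and of Sevir.6G216800 and Sevir.5G419500 at 18 DAS.

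In each of the 2 early steps 7.84% of the tested members were called. This was under the share of all genes in the first step and over it in the second. Between 10 and 12 DAS, as primary branches form, 4 members were called, 1 higher and 3 lower, beside 14.4% of all tested genes (6.61% higher and 7.75% lower). Between 12 and 14 DAS 4 were called, 3 higher and 1 lower, beside 5.27% of all genes (2.31% higher and 2.96% lower). At an unadjusted edgeR p under 0.05 these counts were 12 and 21, beside 5885 and 3809 of the 21180 tested genes. DESeq2 called 5 (3 higher, 2 lower) and 6 (3 higher, 3 lower). The genes of the other 8 transcription factor sheets of the study, 371 of them tested, were called more often, at 40.7% and 19.4%, but the difference from the bZIP members was not tested. Sevir.9G425100 rose by a log2 value of 1.37 from 10 to 12 DAS, and its call was kept whichever library was left out. The 3 members called lower, Sevir.1G310600, Sevir.1G049600 and Sevir.9G002700, each lost the call without replicate 1 of 12 DAS, and only 1 member was then called; without replicate 1 or 3 of 10 DAS 2 members were. Between 12 and 14 DAS, Sevir.5G394500 rose by 2.02 and kept its call in every such fit. The calls of Sevir.9G042300 (1.19), Sevir.2G174000 (0.67) and SvLg2 (−0.70) were lost without replicate 1 or replicate 2 of 12 DAS, and over all libraries left out their adjusted p reached 0.152, 0.172 and 0.116. Leaving out any 1 library of 12 or 14 DAS gave 1 or 2 calls in this step.

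Over the whole early interval, from 10 to 14 DAS, 22 members were called, 13 higher and 9 lower, beside 42.1% of all tested genes, 20.7% higher and 21.5% lower. That is 43.1% of the members, and of the tested genes that meet the 2-fold criterion given above for the stage means 54.8% were called. On the other 8 sheets 63.6% of the genes were called. Whichever library was left out, 17 of the 22 calls held. An F-test among 10, 12 and 14 DAS called 20 members, beside 35.7% of all genes.

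In the late interval, from 15 to 18 DAS, 35 members were called, 15 higher and 20 lower, beside 42.7% of all tested genes, 22.1% higher and 20.6% lower. With library size alone in place of TMM the split was 10 higher and 21 lower. Without replicate 1 of 15 DAS it was 9 and 19, and without replicate 2 of 18 DAS 10 and 18. Without replicates 3 and 4 of 15 DAS it was 12 higher and 9 lower of 53 tested, beside 13.9% and 12.8% of all genes. Of the 41 tested members of bZIP groups, 8 were called higher and 19 lower, and of the 10 with another zipper 7 were called higher and 1 lower. Without replicates 3 and 4 these counts were 5 and 9 of 43, and 7 and 0 of 10. Without replicates 1 and 2 of 15 DAS they were 7 and 21 of 43, and 3 and 1 of 10. The difference between both kinds was not tested. Without replicates 3 and 4, 21 of the 35 calls were kept and 14 were lost, and none of the 35 changed its sign. The 14 were Sevir.1G049600, Sevir.3G199800, Sevir.5G394500, Sevir.2G452300, Sevir.5G260200, Sevir.1G067500, Sevir.3G396500, Sevir.6G133000, Sevir.2G174000, Sevir.5G355500, Sevir.3G197600, Sevir.3G244700, Sevir.8G035700 and Sevir.4G003700. Without replicates 1 and 2 of 15 DAS, 27 were kept. The split was then 10 higher and 22 lower of 53 tested, beside 23.6% and 21.9% of all genes. Of the 2 steps inside this interval, 16 against 15 DAS had 14 calls, 2 higher and 12 lower, beside 28.6% of all genes (13.8% higher and 14.8% lower), and 18 against 16 DAS had 21, 16 higher and 5 lower, beside 36.5% of all genes (20.2% higher and 16.3% lower). The first of these counts fell to 5 of 53 tested without replicates 3 and 4 of 15 DAS, beside 12.6% of all genes. It was 9 without replicate 3 of 15 DAS alone and 8 without replicate 1 of 16 DAS. The 5 lower calls of the second were 2 without replicate 4 of 16 DAS or replicate 3 of 18 DAS, 3 without replicate 3 of 16 DAS or replicates 1 or 4 of 18 DAS, and 8 without replicate 2 of 16 DAS. An F-test among 15, 16 and 18 DAS called 36 members, beside 57.7% of all genes. Without replicates 3 and 4 of 15 DAS it called 29 of 53 tested, and the share of all genes in that setting was not computed. Of the 51 tested members, 13 were called by both F-tests, 7 by the early one only, 23 by the late one only and 8 by neither. The matching split over all genes was not computed.

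**Figure D2:**
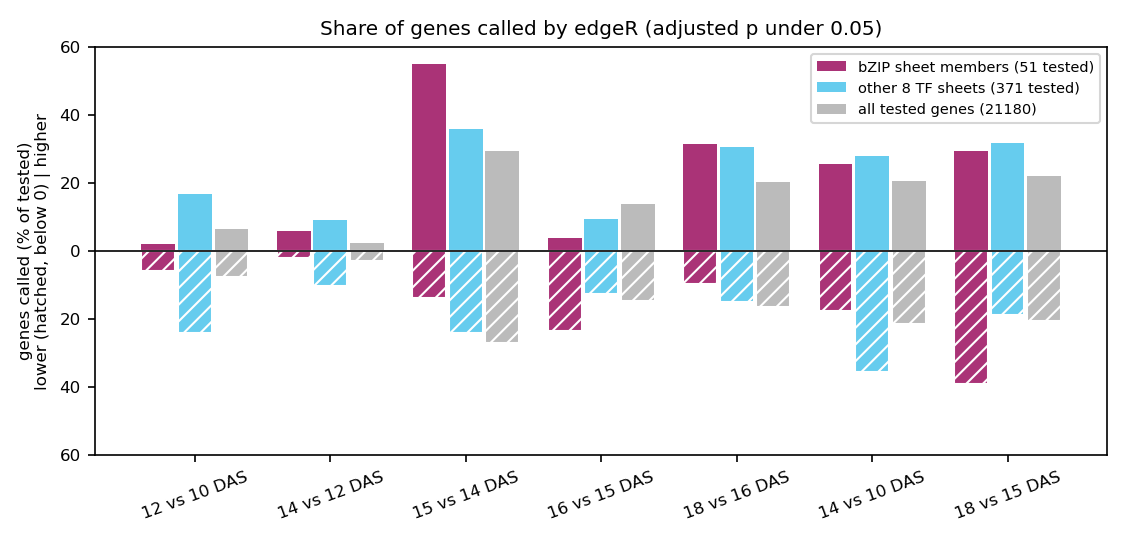
Share of genes called higher (solid bars above 0) and lower (hatched bars below 0) in each comparison, in percent of the genes tested, for the bZIP sheet members, the other 8 transcription factor sheets and all tested genes. The 15 against 14 DAS step crosses the sequencing runs. Members called lower reach 39.2% at 18 against 15 DAS, beside 20.6% of all genes. Without replicates 3 and 4 of 15 DAS, which are included in the bars, they are 9 of 53, beside 12.8% of all genes. Members called at 12 against 10 DAS stay under the shares of both other sets.

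Early and late calls were set side by side as a description. Over all tested genes 42.1% were called early and 42.7% late, and the share of each combination was not computed. There were 5 members called higher in both intervals, 3 lower in both, 5 higher early and lower late, and 2 lower early and higher late. Another 20 were called only in the late interval, 8 higher and 12 lower, 7 only in the early one and 9 in neither. From 14 to 15 DAS, the step in which run and stage cannot be told apart, 35 members were called, beside 56.4% of all genes. Of these 28 were higher and 7 lower, beside 29.4% and 27% of all genes. Without replicates 3 and 4 of 15 DAS 25 of these calls were kept, and 37.8% of all genes were called.

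**Figure D3:**
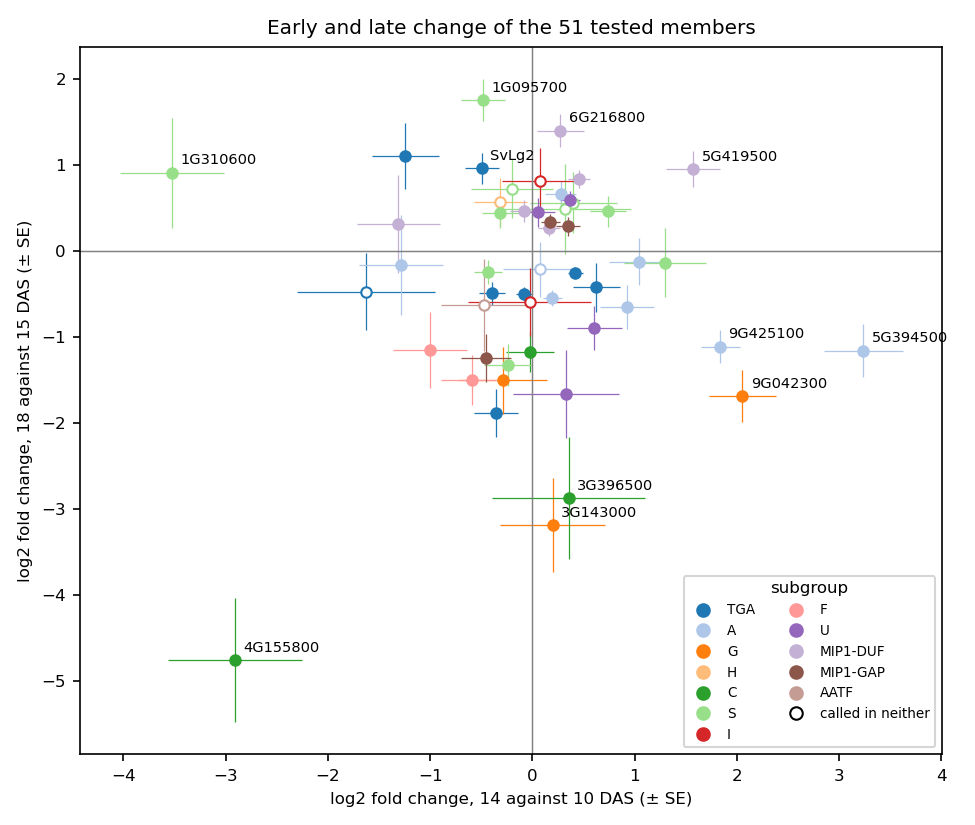
Log2 fold change of the 51 tested members from 10 to 14 DAS (horizontal axis) and from 15 to 18 DAS (vertical axis), with bars for ± SE, coloured by group. Open circles were called in neither comparison. Sevir.4G155800 of group C lies lowest, at −2.91 and −4.76, and Sevir.5G394500 of group A farthest to the right, at 3.24 and −1.16.

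The TGA group (group D in Arabidopsis) split in direction from gene to gene. It holds 4 genes whose match is TGA9 or TGA10, factors needed in Arabidopsis for anther development. SvLg2, the ortholog of maize liguleless 2, stood at 30.4, 25.8, 33.5 and 22.9 CPM at 10 DAS, at 37.4, 30.5 and 29.7 CPM at 12 DAS and at 19.2, 18.6, 22.9 and 19.3 CPM at 14 DAS. It stood at 10.2, 9.64, 6.99 and 6.32 CPM at 15 DAS, at 9.18, 7.36, 9.02 and 9.59 CPM at 16 DAS and at 11.5, 19.3, 12.5 and 19.8 CPM at 18 DAS. All libraries of 18 DAS were above all of 15 DAS (log2 fold change 0.96 ± 0.18 SE, edgeR adjusted p = 0.000229), whereas 10 and 14 DAS overlapped in 1 library each (−0.49 ± 0.17, adjusted p = 0.0193, rising to at most 0.0712 without replicate 3 of 10 DAS or replicate 2 of 14 DAS).

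Sevir.3G229900, which the study also listed among uncharacterized factors of interest, has the same Arabidopsis match as SvLg2 and was likewise highest at 12 DAS, but it went down in the late interval. It had 14.9, 19.0, 17.0 and 22.8 CPM at 10 DAS, 22.9, 24.5 and 22.6 CPM at 12 DAS, and 16.7, 10.7, 14.0 and 16.1 CPM at 14 DAS. It had 8.80, 6.23, 4.54 and 6.595 CPM at 15 DAS, 2.58, 1.46, 1.61 and 0.852 CPM at 16 DAS, and 1.65, 2.47, 0.830 and 1.92 CPM at 18 DAS. Every library of 16 and 18 DAS lay below every library of 15 DAS (log2 fold change −1.97 ± 0.28 at 16 DAS, edgeR adjusted p = 9.73e-05, and −1.88 ± 0.28 at 18 DAS, adjusted p = 1.37e-05). The log2 ratio of SvLg2 to this gene within a library went from 0.33 ± 0.31 (SD, n = 4) at 15 DAS to 2.90 ± 0.36 at 18 DAS, a change of 2.57 that had the smallest p an exact permutation test of 4 against 4 libraries can give (two-sided p = 0.0286, adjusted 0.0571 over 42 tests). From 10 to 14 DAS the same ratio changed by −0.12 (exact permutation p = 0.657).

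The other 2 of these genes did not rise late. Sevir.8G034300, with the same match, was highest at 14 DAS, at 2.95, 4.06, 3.72 and 3.63 CPM, and lowest at 18 DAS, at 1.29, 1.14, 0.905 and 1.14 CPM. Its early rise (0.63 ± 0.23, edgeR adjusted p = 0.0304) was lost without any of 6 libraries, replicates 1, 2 and 4 of 10 DAS and 2, 3 and 4 of 14 DAS, with adjusted p of up to 0.102. Sevir.1G049600, matched to TGA10, went from 28.4, 31.0, 33.7 and 29.9 CPM at 10 DAS to 22.4, 22.9, 26.0 and 22.2 CPM at 14 DAS (−0.39 ± 0.12, edgeR adjusted p = 0.0139). It went from 13.04, 10.7, 14.2 and 20.1 CPM at 15 DAS to 11.9, 10.48, 9.96 and 9.30 CPM at 18 DAS (−0.49 ± 0.14, adjusted p = 0.00543, and −0.20 with adjusted p = 0.274 without replicates 3 and 4 of 15 DAS). The early groups did not overlap and the late ones did.

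Of the genes matched to TGA6 or TGA2, defense factors of Arabidopsis that work with NPR1, the 3 differed in course. Sevir.5G036900 had 74.1 to 80.3 CPM at 10 DAS and 67.4 to 79.7 CPM at 14 DAS, then 119, 128, 149 and 116 CPM at 15 DAS and 86.5, 95.4, 85.1 and 95.8 CPM at 18 DAS. All its 15 DAS libraries were above all others of the series, and the fall to 18 DAS was −0.50 ± 0.08 (edgeR adjusted p = 4.46e-05). Sevir.9G428400 changed little but evenly, from 33.6 to 35.8 CPM at 10 DAS to 43.2 to 50.0 CPM at 14 DAS (0.42 ± 0.07, edgeR adjusted p = 3.82e-05), and from 53.2 to 61.0 CPM at 15 DAS to 46.4 to 51.9 CPM at 18 DAS (−0.26 ± 0.07, adjusted p = 0.00464). Sevir.3G199800 was low throughout, at most 1.004 CPM, and was called lower early (−1.24 ± 0.33, edgeR adjusted p = 0.00403) and higher late (1.11 ± 0.38, adjusted p = 0.0238, lost without replicate 1 or 4 of 15 DAS or replicate 1 of 18 DAS). Sevir.6G041300, annotated as TGA7-like, held only 5, 1, 4 and 0 counts in the 14 DAS libraries and 14, 9, 34 and 25 counts in those of 15 DAS, a step across the runs, and was called neither early nor late.

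Group A holds the abscisic acid factors of Arabidopsis. From 10 to 14 DAS 4 of its 8 members were called higher and 1 was called lower, beside 20.7% and 21.5% of all genes, while in the later interval there were 1 higher and 4 lower, beside 22.1% and 20.6%. Without replicates 3 and 4 of 15 DAS the late falls of Sevir.5G394500 and Sevir.2G452300 were not called. Sevir.9G425100, annotated as ABSCISIC ACID-INSENSITIVE 5-like and matched to EEL and AREB3, seed factors of Arabidopsis, went from 20.6, 22.7, 18.6 and 15.0 CPM at 10 DAS to 57.4, 42.5 and 49.8 CPM at 12 DAS and 63.1, 82.0, 69.0 and 62.1 CPM at 14 DAS. It then stood at 53.1, 35.5, 49.1 and 44.1 CPM at 15 DAS, at 41.9, 30.1, 54.7 and 55.8 CPM at 16 DAS and at 13.7, 21.1, 26.0 and 23.4 CPM at 18 DAS. The rise to 14 DAS (1.84 ± 0.19, edgeR adjusted p = 8.3e-08) and the fall to 18 DAS (−1.11 ± 0.19, adjusted p = 7.87e-05) each separated all libraries of the stages compared, so that the gene was high from 12 to 16 DAS and low at both ends.

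Sevir.5G394500, matched to ABI5, which holds back seedling growth in Arabidopsis seeds under abscisic acid, had the largest early rise among the tested members. Its levels were 1.16, 1.26, 0.970 and 0.638 CPM at 10 DAS, 2.36, 1.87 and 2.91 CPM at 12 DAS and 9.02, 11.2, 8.32 and 10.7 CPM at 14 DAS (14 against 10 DAS, 3.24 ± 0.39, edgeR adjusted p = 6.9e-07). No early library overlapped with one of another early stage. At 15 DAS it had 18.3, 12.5, 30.1 and 34.7 CPM, at 16 DAS 13.9, 8.66, 20.01 and 24.4 CPM and at 18 DAS 4.94, 11.5, 12.6 and 14.3 CPM. Here replicate 2 was the lowest and replicate 4 the highest of both 15 and 16 DAS, the late groups overlapped, and the late fall (−1.16 ± 0.31, edgeR adjusted p = 0.00405) was not called without replicates 3 and 4 of 15 DAS (−0.52, adjusted p = 0.271).

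The other group A genes moved less. Sevir.2G452300, with the match EEL, had 10.1 to 12.06 CPM at 10 DAS and 17.8 to 23.96 CPM at 14 DAS (0.92 ± 0.26, edgeR adjusted p = 0.0074), and Sevir.2G239700, matched to the drought factor ABF1, from 1.77 to 3.68 CPM to 4.18 to 7.86 CPM (1.04 ± 0.29, adjusted p = 0.00551). In both genes the early groups did not overlap. The late fall of Sevir.2G452300 (−0.65 ± 0.26, edgeR adjusted p = 0.0474) was lost without any 1 of 18 libraries, with adjusted p of up to 0.183. Sevir.6G246600, the only member matched to FD, was lower at 14 DAS, at 0.511 to 0.947 CPM, than at 10 DAS, at 1.63 to 1.94 CPM (−1.29 ± 0.41, edgeR adjusted p = 0.015). At 15 DAS its 4 libraries gave 0.954, 1.099, 0.239 and 0.0687 CPM, the reverse of the order seen in Sevir.5G394500. Sevir.4G081100, matched to ABF2, was the member of the group that was called higher late, from 20.7, 16.2, 24.2 and 25.4 CPM at 15 DAS to 31.8, 37.6, 32.0 and 36.6 CPM at 18 DAS (0.66 ± 0.15, edgeR adjusted p = 0.00102), with no overlap. Sevir.3G203000, matched to AREB3, was highest at 15 DAS, at 26.7 to 30.8 CPM, above every other library of the series, and fell to 19.7 to 20.6 CPM at 18 DAS (−0.55 ± 0.09, edgeR adjusted p = 6.92e-05). The ABF4-matched Sevir.1G338300 was called in neither interval.

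**Figure D4:**
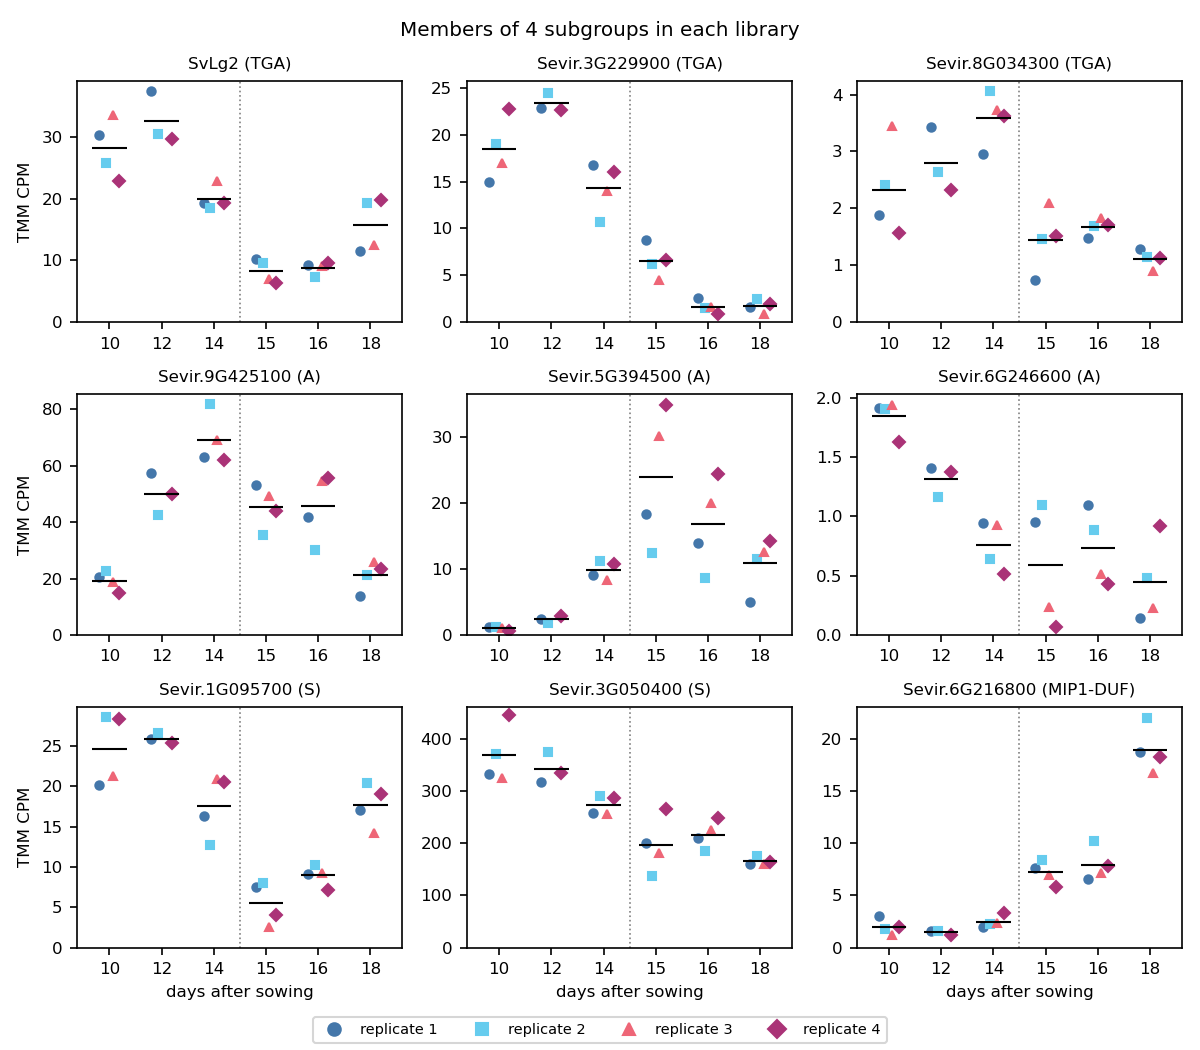
CPM of 9 members in each library by days after sowing, with a symbol for each replicate number and a bar for the stage mean. The dotted line marks the change of sequencing run, and each panel has its own axis from 0. The courses of SvLg2 and Sevir.3G229900 part from 16 DAS on, Sevir.9G425100 is high in the middle stages, and Sevir.6G216800 has its 4 highest libraries at 18 DAS.

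The factors of group C pair in Arabidopsis with group S factors and answer to low energy supply. All 3 were highest at 15 DAS, as were 26.8% of the 10413 genes that meet the 2-fold criterion. All 3 were called lower from 15 to 18 DAS, beside 20.6% of all genes. Without replicates 3 and 4 of 15 DAS only Sevir.4G155800 was called lower, beside 12.8% of all genes. Its own peak was then at 10 DAS. Sevir.4G155800, annotated as basic leucine zipper 9-like, fell early, from 127, 125, 184 and 169 CPM at 10 DAS over 39.8, 54.96 and 61.7 CPM at 12 DAS to 17.3, 23.8, 15.2 and 24.2 CPM at 14 DAS (−2.91 ± 0.65, edgeR adjusted p = 0.0011). No libraries of these 3 stages overlapped. At 15 DAS it had 156, 13.1, 384 and 567 CPM, at 16 DAS 10.3, 6.15, 35.6 and 59.1 CPM and at 18 DAS 10.6, 13.5, 8.30 and 8.94 CPM. The 15 DAS libraries thus spread from below the highest library of 18 DAS to above every other value of the gene, and the fall to 18 DAS was −4.76 ± 0.72 (edgeR adjusted p = 1.99e-05). Without replicates 3 and 4 of 15 DAS it was −3.04 (adjusted p = 0.00123).

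Sevir.3G396500, matched to bZIP63 and bZIP9 and annotated as CPRF2-like, had 6.95 to 21.7 CPM up to 14 DAS and then had 130, 13.9, 265 and 448 CPM at 15 DAS. It had 20.03, 7.28, 56.0 and 85.7 CPM at 16 DAS and 6.22, 54.99, 19.6 and 35.9 CPM at 18 DAS. The fall from 15 to 18 DAS (−2.87 ± 0.71, edgeR adjusted p = 0.00257) was −1.30 without replicates 3 and 4 of 15 DAS and was then not called (adjusted p = 0.191). The third gene, Sevir.1G067500, also matched to bZIP9, had 16.7 to 23.0 CPM in all early libraries, 48.1, 28.3, 75.2 and 98.7 CPM at 15 DAS, and later 18.0 to 26.6 CPM (16 DAS) and 24.6 to 32.1 CPM (18 DAS). Its 15 and 16 DAS libraries did not overlap (−1.49 ± 0.24, edgeR adjusted p = 0.00018, and still called without replicates 3 and 4, at −0.77 and adjusted p = 0.0103), while the fall to 18 DAS (−1.17 ± 0.23, adjusted p = 0.000353) was not called without them (adjusted p = 0.0758).

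Group G, the G-box factors, and Sevir.3G197600 of group F had the same order of libraries at 15 DAS. Sevir.3G143000, annotated as common plant regulatory factor 1-like and matched to GBF3, had 7.93 to 19.1 CPM in all early libraries, then 46.7, 6.35, 81.8 and 178 CPM at 15 DAS, 8.01, 7.20, 13.7 and 21.0 CPM at 16 DAS and 7.73, 12.0, 6.49 and 8.16 CPM at 18 DAS. Replicate 2 of 15 DAS was the lowest library of the whole series for this gene and replicate 4 of the same stage the highest. The fall to 18 DAS was −3.19 ± 0.54 (edgeR adjusted p = 7.02e-05), and −1.63 (adjusted p = 0.012) without replicates 3 and 4. Sevir.5G260200, with the same match, had 6.36, 2.81, 13.1 and 22.1 CPM at 15 DAS and 3.12 to 4.88 CPM at 18 DAS, and its fall (−1.50 ± 0.39, edgeR adjusted p = 0.00357) was lost without these libraries (−0.21, adjusted p = 0.713). Sevir.9G042300, matched to bZIP16, rose from 0.283 to 0.559 CPM at 10 DAS to 1.45 to 2.42 CPM at 14 DAS without overlap (2.06 ± 0.33, edgeR adjusted p = 2.73e-05). It fell from 2.44, 1.83, 4.06 and 4.19 CPM at 15 DAS to 0.715, 1.26, 0.679 and 1.28 CPM at 18 DAS, again without overlap (−1.69 ± 0.30, adjusted p = 0.000109), and this call was kept without replicates 3 and 4 (−1.11, adjusted p = 0.0255).

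In group F, whose Arabidopsis members respond to zinc deficiency, Sevir.3G197600 had 89.4, 53.1, 163 and 233 CPM at 15 DAS, 55.1, 44.8, 63.3 and 77.9 CPM at 16 DAS and 45.6, 53.9, 37.1 and 54.3 CPM at 18 DAS, after 23.0 to 53.0 CPM in the early libraries. The fall to 18 DAS (−1.50 ± 0.30, edgeR adjusted p = 0.000316) was not called without replicates 3 and 4 of 15 DAS (−0.58, adjusted p = 0.0726). Sevir.5G355500, with the same match bZIP23, stayed at or below 1.40 CPM and was called lower in both intervals (−1.004 ± 0.36, edgeR adjusted p = 0.0285, and −1.15 ± 0.44, adjusted p = 0.0395). Each of its calls was lost without single libraries: the early one without replicates 1, 2 or 3 of 10 or of 14 DAS (adjusted p up to 0.0835), the late one without replicates 3 or 4 of 15 DAS or 1, 2 or 4 of 18 DAS (up to 0.214).

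**Figure D5:**
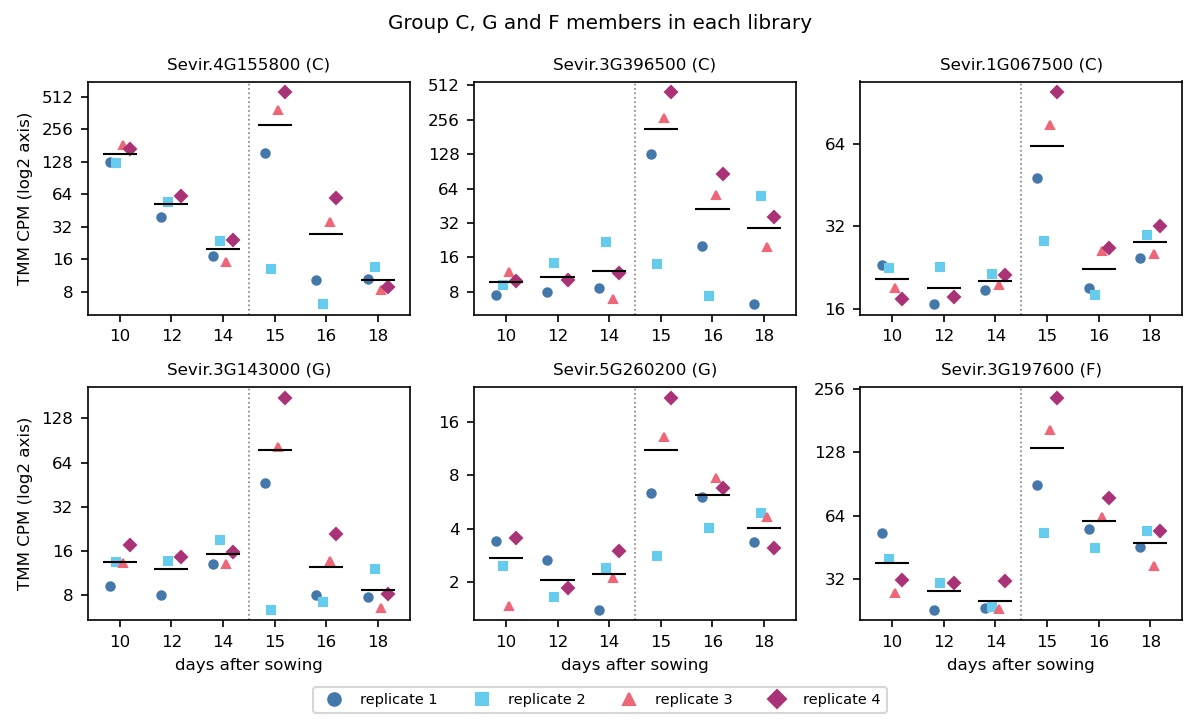
CPM of the 3 members of group C, 2 of group G and 1 of group F in each library, on a log2 axis, by days after sowing, with a symbol for each replicate number and a bar for the stage mean. At 15 DAS replicate 2 is the lowest and replicate 4 the highest in all 6 panels, from 13.1 to 567 CPM in Sevir.4G155800.

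The order of the 15 DAS libraries, from replicate 2 over 1 and 3 up to 4, was found in 16 of the 51 tested members and in 12% of all tested genes. All 3 members of group C, all 3 of group G and 5 of group A were among these 16. The reverse order was found in 4 members, Sevir.6G246600, Sevir.1G043300, Sevir.9G561500 and Sevir.6G216800, and in 10.6% of all genes. At 16 DAS, whose libraries carry the same numbers but are other pools, the order from 2 over 1 and 3 to 4 was found in 17 members and 13.2% of all genes, the reverse in 0 members and 12.3% of all genes, and 9 members had the first order at both stages. These orders were chosen after seeing the values and are a description only. Summed over the 55 members, the 15 DAS libraries held 1621, 1144, 2254 and 2844 CPM, while all other libraries lay between 1148 and 1600 CPM. The within-stage SD of log2 levels had a median of 0.367 over the members at 15 DAS (0.229 over all tested genes) and of 0.193 to 0.29 at the other stages. The depth of these libraries moves with the order in part, since replicates 2 and 1 are the shallowest of the series, and the part of depth in the spread was not tested. The leaf markers summed to 16.2 to 19.4 CPM and the meristem markers to 822 to 1070 CPM in the 4 libraries of 15 DAS.

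Group H had 1 member, Sevir.1G043300, annotated as HY5-like after the light regulator HY5 of Arabidopsis. It was called in neither interval but rose within the late one, from 6.72, 10.3, 5.72 and 6.96 CPM at 16 DAS to 22.5, 12.8, 12.14 and 14.1 CPM at 18 DAS (1.05 ± 0.28, edgeR adjusted p = 0.00555), with no overlap, and the call held whichever library was left out.

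Group S, the small factors that pair with group C in Arabidopsis, was the largest group. From 10 to 14 DAS 2 of its 10 tested members were called higher and 2 lower, beside 20.7% and 21.5% of all genes, and late 3 were higher and 1 was lower, beside 22.1% and 20.6%. Without replicates 3 and 4 of 15 DAS the late calls were 1 higher and 1 lower of 11 tested. In that setting 13.9% of all genes were called higher and 12.8% lower. Sevir.3G050400, matched to bZIP53, a factor of seed storage and amino acid genes in Arabidopsis, went down from 332, 372, 325 and 446 CPM at 10 DAS to 258, 292, 256 and 287 CPM at 14 DAS and 161, 176, 160 and 164 CPM at 18 DAS. Its early fall (−0.43 ± 0.14, edgeR adjusted p = 0.0159) was lost without replicate 4 of 10 DAS (adjusted p = 0.0657), although the 10 and 14 DAS libraries did not overlap, and its late change was not called (−0.25 ± 0.14, adjusted p = 0.158).

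Sevir.1G095700, matched to bZIP11, whose translation sucrose represses in Arabidopsis, was lowest at 15 DAS. It had 20.1 to 28.6 CPM at 10 and 12 DAS, 16.4, 12.7, 20.9 and 20.5 CPM at 14 DAS, 7.53, 8.06, 2.57 and 3.98 CPM at 15 DAS, 7.17 to 10.3 CPM at 16 DAS, then 17.0, 20.5, 14.2 and 19.0 CPM at 18 DAS. The rise from 15 to 18 DAS (1.75 ± 0.25, edgeR adjusted p = 7.98e-06) was the largest late rise among the members, and no libraries overlapped. Without replicates 3 and 4 of 15 DAS this rise was 1.18 (edgeR adjusted p = 0.00051). The called rises of Sevir.5G419500 (1.45) and Sevir.6G216800 (1.23) were then larger. Replicates 3 and 4 of 15 DAS, the highest for group C, were the lowest here.

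The 3 genes matched to bZIP42 differed in direction. Sevir.1G310600 fell from 4.99, 2.06, 2.54 and 2.41 CPM at 10 DAS to 0.167, 0.214, 0.372 and 0.284 CPM at 14 DAS (−3.53 ± 0.51, edgeR adjusted p = 8.5e-06), without overlap, and was not called late. Sevir.1G053800 was not called early and fell from 4.56, 3.78, 6.93 and 7.63 CPM at 15 DAS to 2.79, 1.99, 2.26 and 2.27 CPM at 18 DAS (−1.33 ± 0.24, edgeR adjusted p = 0.000163), again without overlap. Sevir.3G421800 rose from 0.323 to 0.890 CPM at 16 DAS to 0.787 to 1.93 CPM at 18 DAS (1.32 ± 0.35, edgeR adjusted p = 0.00574), where the groups overlapped. The ratio of the first to the second changed by −1.94 early and by 1.47 late, each with the smallest p of the exact permutation test (0.0286, adjusted 0.0571). Of the 2 tested genes matched to bZIP44, Sevir.2G174000 rose early, from 3.27 to 5.71 CPM to 5.94 to 8.69 CPM (0.74 ± 0.18, edgeR adjusted p = 0.00162). Its late rise (0.46, adjusted p = 0.0387) and that of Sevir.6G133000 (0.45, adjusted p = 0.0468) were each lost without several single libraries, with adjusted p of up to 0.157 and 0.198. Sevir.4G194600, matched to bZIP58, had 5.88 to 14.5 CPM at 18 DAS and 1.94 to 7.39 CPM at 16 DAS (1.18 ± 0.36, edgeR adjusted p = 0.0141). Sevir.9G434200 was called higher early only (1.30 ± 0.40, edgeR adjusted p = 0.0127), and Sevir.9G073900 was called in neither interval.

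The 4 members of group I, in Arabidopsis the group of VIP1, were low: neither of the 2 that could be tested was called in either interval, and Sevir.8G009600 was called only in the step across the runs (2.53 ± 0.48, edgeR adjusted p = 0.000114). Of the 4 tested members of no group, 2 were called higher and 2 lower in the late interval, beside 22.1% and 20.6% of all genes. Without replicates 3 and 4 of 15 DAS the counts were 2 and 0, beside 13.9% and 12.8%. Sevir.8G097100 rose in both intervals, from 44.9, 42.5, 43.4 and 45.1 CPM at 10 DAS to 57.3, 60.8, 59.1 and 50.6 CPM at 14 DAS (0.37 ± 0.10, edgeR adjusted p = 0.00383) and from 61.3, 59.4, 62.0 and 44.1 CPM at 15 DAS to 78.5, 87.0, 88.1 and 89.4 CPM at 18 DAS (0.60 ± 0.10, adjusted p = 4.74e-05). Neither pair of stages overlapped. Sevir.3G244700 fell from 3.07, 3.78, 4.12 and 2.89 CPM at 15 DAS to 1.72, 1.69, 1.28 and 2.77 CPM at 18 DAS (−0.89 ± 0.26, edgeR adjusted p = 0.00752), and Sevir.8G035700 from 0.610 to 1.49 CPM to 0.286 to 0.361 CPM (−1.66 ± 0.51, adjusted p = 0.0122, and 0.0633 without replicate 3 of 15 DAS). Without replicates 3 and 4 of 15 DAS their adjusted p were 0.0506 and 0.37. Sevir.7G288000 was called higher late (0.45 ± 0.17, edgeR adjusted p = 0.0359), a call lost without replicates 1 or 2 of 15 DAS or 2 or 4 of 18 DAS (adjusted p up to 0.167).

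DUF547, carried by 6 of the MIP1-type genes, is a domain of unknown function. From 15 to 18 DAS 5 of these 6 were called higher and 0 lower, beside 22.1% and 20.6% of all genes. The median log2 fold change was 0.65 over the 6, beside 0.03 over all tested genes. Without replicates 3 and 4 of 15 DAS the counts were again 5 and 0, beside 13.9% and 12.8% of all genes. Without replicates 1 and 2 they were 3 and 0, beside 23.6% and 21.9%. Sevir.6G216800, also among the uncharacterized factors the study listed, had 3.00, 1.76, 1.21 and 1.98 CPM at 10 DAS, 1.95, 2.25, 2.36 and 3.29 CPM at 14 DAS, 7.63, 8.42, 6.99 and 5.84 CPM at 15 DAS and 18.7, 22.0, 16.7 and 18.2 CPM at 18 DAS. The 18 DAS libraries were all above every other library of the series (1.40 ± 0.19 against 15 DAS, edgeR adjusted p = 5.84e-06). Sevir.5G419500 rose in both intervals, from 1.24, 1.76, 0.909 and 0.567 CPM at 10 DAS to 3.23, 3.05, 3.599 and 3.97 CPM at 14 DAS (1.58 ± 0.26, edgeR adjusted p = 5.13e-05). It then rose from 5.41, 5.61, 9.61 and 9.96 CPM at 15 DAS to 15.9, 16.6, 12.0 and 16.0 CPM at 18 DAS (0.95 ± 0.21, adjusted p = 0.00106), again without overlap.

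Sevir.9G330200 rose from 33.8 to 39.3 CPM at 10 DAS to 45.9 to 52.2 CPM at 14 DAS (0.45 ± 0.11, edgeR adjusted p = 0.00164), stayed between 36.7 and 53.5 CPM at 15 and 16 DAS, and reached 83.0, 74.4, 75.3 and 76.9 CPM at 18 DAS (0.84 ± 0.11 against 15 DAS, adjusted p = 2.96e-06). Sevir.6G189400 rose from 10.4 to 14.8 CPM to 15.6 to 19.3 CPM (0.47 ± 0.13, edgeR adjusted p = 0.00539). The late rise of Sevir.4G263200 (0.27 ± 0.10, edgeR adjusted p = 0.0371) was lost without replicates 1 or 2 of either stage (adjusted p up to 0.126), with library size alone and with the replicate number as a block (alternatives up to 0.176). Sevir.9G002700 went the other way early, from 0.502 to 1.06 CPM to 0.267 to 0.496 CPM (−1.31 ± 0.40, edgeR adjusted p = 0.0117). The floral organ markers rose in the same late step, with 4 of 4 called higher, and whether these members and the markers rise in the same organs was not tested.

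The 3 MIP1-type genes with a GTPase-activating domain, which switches off small GTPases, did not move together. Sevir.2G430200 rose from 100.9, 105, 126 and 117 CPM at 15 DAS to 138, 165, 118 and 147 CPM at 18 DAS (0.34 ± 0.09, edgeR adjusted p = 0.0049), with 1 library of 18 DAS inside the range of 15 DAS, and was not called when only the stages compared were fitted (adjusted p = 0.0771). Sevir.9G402500 rose from 132 to 166 CPM at 10 DAS to 166 to 192 CPM at 14 DAS (0.35 ± 0.11, edgeR adjusted p = 0.0161), a call lost without replicates 1, 2 or 3 of 10 DAS (adjusted p up to 0.0633), and its late change (0.29 ± 0.11, adjusted p = 0.0442) was lost in 10 of the 23 fits that left out 1 library (up to 0.159). Sevir.4G003700, matched to REN1, which acts in the pollen tubes of Arabidopsis, fell from 1.38, 0.976, 1.67 and 1.58 CPM at 15 DAS to 0.787, 0.663, 0.302 and 0.639 CPM at 18 DAS without overlap (−1.24 ± 0.28, edgeR adjusted p = 0.00118, and 0.0627 without replicates 3 and 4 of 15 DAS). The AATF gene Sevir.3G044300 was called in no comparison.

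Genes that share an Arabidopsis match were compared within libraries, 21 pairs in each of the early and late intervals. Of the 42 exact permutation tests 21 gave the smallest possible p of 0.0286, 12 in the early and 9 in the late interval, and 0 passed after adjustment, where the lowest value was 0.0571. Of the largest changes in ratio, that of Sevir.4G155800 to Sevir.3G396500 fell by 3.10 from 10 to 14 DAS (exact permutation p = 0.0286), from 3.90 ± 0.14 (SD, n = 4) to 0.80 ± 0.45, while their late change of −1.36 had an exact permutation p of 0.143. The pairs of the genes with a GTPase-activating domain and of the bZIP23 genes had an exact permutation p of at least 0.0857 in both intervals.

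Beside the members, 5 genes linked to bZIP genes in other plants were looked at. One is SvLg1, a transcription factor of another family and not a pairing partner. In maize, as the study states, liguleless 2 was proposed to act upstream of its counterpart liguleless 1. The other 4 are genes related to TFL1, whose Arabidopsis counterpart works with FD. Of these 5 genes, 4 could be tested. In the early interval 1 was called higher and 3 lower, beside 20.7% and 21.5% of all genes. In the late one 0 were called higher and 2 lower, beside 22.1% and 20.6%. SvLg1 rose from a mean of 3.54 CPM at 10 DAS to 72.8 CPM at 14 DAS (log2 fold change 4.40 ± 0.19, edgeR adjusted p = 6.89e-14), while SvLg2 went from a mean of 28.1 to 20.01 CPM. The FD-matched Sevir.6G246600 and the 3 TFL1-related genes were all called lower in this interval, and a link between them was not tested.

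Members below the count limit were 4. Sevir.5G193800, Sevir.9G350000 and Sevir.5G169600 had at most 16, 18 and 14 counts in any library, and Sevir.7G310700 at most 4 and 0 in all 4 libraries of 18 DAS. At this depth no difference between stages could be read for them.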

How the data were processed

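RNA-seq of 23 libraries was analysed. The authors quantified reads with Salmon 0.8.1 and tximport against primary transcripts (S. viridis annotation v1.1), using read 1 of the paired-end libraries, and deposited expected counts (estimated counts) per gene without normalization. Of the deposited values 8.77% have a fraction, and they were rounded to whole counts. Genes at 0 in all libraries (5210) were left out. edgeR 4.0.16 in R 4.3.3 was run with TMM, filterByExpr (21180 genes), 1 mean per stage over all 23 libraries and two-sided quasi-likelihood tests, with Benjamini-Hochberg adjustment over all tested genes. Each SE is the absolute fold change over the root of its F statistic. Fitted fold changes of low genes depend on the prior count. DESeq2 1.42.0 was an alternative. Ratios of related members used log2(CPM + 0.5) and exact permutation over libraries (scipy 1.17.1).

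The members, gene lists and alternatives were chosen with earlier results of these data known. Named were SvLg2, the 4 members on the study's list of uncharacterized factors, the 4 largest rises and falls among called members of at least 1 CPM in 14 against 10 and 18 against 15 DAS, the highest member of each group and all related sets, and other members where a count was small; those named beyond this were chosen after their values were seen. The code was tested on simulated data. No 2 libraries of a stage were copies. Strand use in counting, and reads shared between near-identical members, were not examined. Gene sequences were not used here.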

Additional observations from a re-analysis of the deposited data

Results flagged for a closer look

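Among the 21 leading members, each of the 105 groups of libraries was looked at for a single library far from the rest of its stage (Dixon's test; groups of 3 were not looked at, and chance marks about 1 in 20 groups). There were 5 such libraries. Sevir.9G561500 had 3.80 CPM in replicate 2 of 16 DAS, while the others of that stage had 1.61 to 1.92 CPM. Sevir.3G197600 had 31.3 CPM in replicate 4 of 14 DAS, above 23.1 to 23.6 CPM. Sevir.8G097100 had 44.1 CPM in replicate 4 of 15 DAS, below 59.4 to 62.0 CPM. Sevir.5G419500 had 12.0 CPM in replicate 3 of 18 DAS, below 15.9 to 16.6 CPM. Sevir.9G402500 had 166 CPM in replicate 4 of 10 DAS, above 132 to 138 CPM.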

How the results depend on the processing

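Counts of called members moved by more than 1.5 times in few settings. When a minimum of 10 counts per library was required, which leaves 32 members, the counts were 2 for 12 against 10 DAS, 1 for 14 against 12 DAS, 12 for 14 against 10 DAS, 12 among 10, 12 and 14 DAS and 31 among all stages. Fits of only the stages compared gave 11 for 14 against 12 DAS and 7 for 16 against 15 DAS. Pairs of 15 DAS libraries to leave out were chosen after seeing the data. Without replicates 3 and 4 there were 5 calls for 16 against 15 DAS, beside 12.6% of all genes. For 18 against 15 DAS there were then 21, beside 26.7%. Without replicates 1 and 2 there were 22 for 16 against 15 DAS, beside 34.3%. With library size alone 2 members were highest at 16 DAS, with the first of these pairs left out 7 and with the second 2. Leaving out 1 library at a time gave 1 to 5 calls for 12 against 10 DAS, 1 to 5 for 14 against 12 DAS, 8 to 19 for 16 against 15 DAS and 2 to 5 members highest at 16 DAS; the other comparisons stayed within 30 to 38 (15 against 14 DAS), 17 to 24 (18 against 16), 18 to 24 (14 against 10) and 28 to 35 (18 against 15). The cause of these shifts was not tested. No called fold change of a named gene reversed its sign. With replicate number as a block, the same 7 comparisons in the order 12 against 10, 14 against 12, 15 against 14, 16 against 15, 18 against 16, 14 against 10 and 18 against 15 DAS gave 3, 3, 34, 13, 21, 22 and 32 calls. The labels do not say whether same-numbered libraries of different stages belong together. Of 55 same-numbered pairs of different stages 14 had a correlation of deviations over 0.1 (median 0.031). Of 165 pairs with other numbers 45 did (median 0.016). Best correlation was with a library of the same number for 10 of 23 libraries. Depth limits the members at or below 1 CPM, since 1 CPM is about 8.19 counts in the shallowest library.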
